A study of Mus musculus with 27 samples.

Results

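This comparison sets hearts taken 3 days after transverse aortic constriction (TAC) from mice injected with JQ1 against hearts taken 3 days after sham surgery from mice injected with vehicle. Each group has 3 arrays, so 6 of the 27 arrays of the series enter it directly, and the members described are the 19937 genes read by a probe set of 1 gene. Where a gene had several probe sets, the one that was brightest on average over all 27 arrays stands for it. The 3 groups used at day 3 are TAC with JQ1, TAC with vehicle and sham with vehicle, and TAC with JQ1 was also compared with sham at days 11 and 28. In all of them the mice were C57Bl/6J males, littermates aged 10 to 12 weeks, and the agent or its vehicle, DMSO, was given by injection from 1.5 days after the operation. The band around the aortic arch gave a pressure gradient of about 50 mmHg, per the labels' protocols, and RNA came from a piece of 10 to 20 mg of heart. The labels give no sham group with JQ1, so a difference between JQ1-treated TAC hearts and sham hearts holds the operation and the drug together. The vehicle-treated TAC hearts were therefore set beside it: the question is which changes of the banded heart were still there with JQ1, and which differences from sham were found with JQ1 and not with vehicle.

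TAC narrows the aorta and makes the left ventricle pump against a higher pressure. The heart muscle cell answers with a stress programme in which genes of the fetal heart, such as those for natriuretic peptides and the beta isoform of myosin, are switched on, while fibroblasts lay down matrix and immune cells enter the tissue. JQ1 is a small molecule that occupies the acetyl-lysine pocket of the BET bromodomain proteins and displaces them from chromatin, where they help RNA polymerase II to leave its paused state near the gene start through the elongation factor P-TEFb.

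Values are log2 signals, on which a difference of 1 is a doubling, and differences carry the standard error (SE) of the fitted model. A gene is called where the adjusted p (limma, Benjamini-Hochberg over 19937 genes) was under 0.05. Values of one gene are set against each other, not those of different genes, since each probe set has its own response. The arrays bore out the tissue: Myh6, the main myosin heavy chain of the adult mouse heart, read 13.41 to 13.50 in JQ1-treated TAC hearts, 13.41 to 13.48 in vehicle-treated TAC hearts and 13.49 in each sham heart, near the top of the deposited range of 1.672 to 14.206.

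One JQ1-treated TAC array stood apart from its group. Between replicate 1 and replicates 2 and 3 of that group 116 and 191 genes differed by more than 1 on the log2 scale, against 8 genes between replicates 2 and 3. In vehicle-treated TAC hearts replicate 2 was the farther one, with 66 and 26 genes against 20 for the remaining pair, and in sham hearts the 3 pairs gave 26, 5 and 8 genes. The counts that open each group of genes were therefore repeated without these arrays, and a value is given where it moved (vehicle replicate 2 always means that of the TAC group). With 3 arrays a group, the number of arrays limits the precision of every value.

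With JQ1, 3511 of 19937 genes (17.6%) were called against sham, 1384 higher (6.94%) and 2127 lower (10.7%). The counts of gene lists below stand beside these shares, and a list near them is no result about its members as a group. Of these, 737 differed by at least 1.5-fold, 235 higher and 502 lower, and 170 by at least 2-fold, 61 higher and 109 lower. The 3 JQ1-treated TAC arrays and the 3 sham arrays did not overlap for 5307 genes (26.6%), among them 3284 of the called genes. The split between higher and lower depended on scaling: it was 1789 higher and 1499 lower with each array centred on its median, and 1886 higher and 2025 lower after a further quantile normalization. The median difference of all genes was -0.01 as deposited, 0.041 after centring and 0.015 after quantile normalization. Without JQ1 replicate 1 the count was 2599 genes, 954 higher (4.79%) and 1645 lower (8.25%), and 2314 of the 3511 genes were called again in the same direction. In simulated data of the same size, differences planted at 1.5-fold were called for 82% of genes and those at 1.2-fold for 8%. Far fewer genes were changed there, with 145 calls against 3511 here. A call there needed a smaller p, so these shares do not give the reach in the data themselves.

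Vehicle-treated TAC hearts, compared with the same 3 sham arrays, gave 842 higher genes (4.22%) and 664 lower genes (3.33%). Set against each other, JQ1-treated and vehicle-treated TAC hearts differed in 854 genes that were higher with JQ1 (4.28%) and 1518 that were lower (7.61%). This split, too, depended on scaling. It was 1224 higher and 1042 lower with each array centred on its median, and 1246 and 1424 after a further quantile normalization. In both TAC groups 827 genes were called against sham in the same direction, 368 higher and 459 lower. Because the comparisons share the sham arrays, that count is a description and not support for one comparison by the other. Of the 827 genes, 736 were not called different between the TAC groups, 78 lay farther from sham with JQ1 and 13 lay nearer. A further 23 genes were called in opposite directions. With JQ1 and not with vehicle 2661 genes were called, and for 1322 of these, 487 higher and 835 lower, the TAC groups themselves were called different in the same direction. After centring the arrays the latter were 683 higher and 541 lower, and after quantile normalization 724 and 729. With vehicle and not with JQ1 656 genes were called, and for 301 of these, 256 higher and 45 lower, the TAC groups were also called different. Without vehicle replicate 2 the latter were 57 higher and 8 lower. The plot of differences against mean level marks only the genes called higher or lower than sham with JQ1, not these classes.

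**Figure D1:**
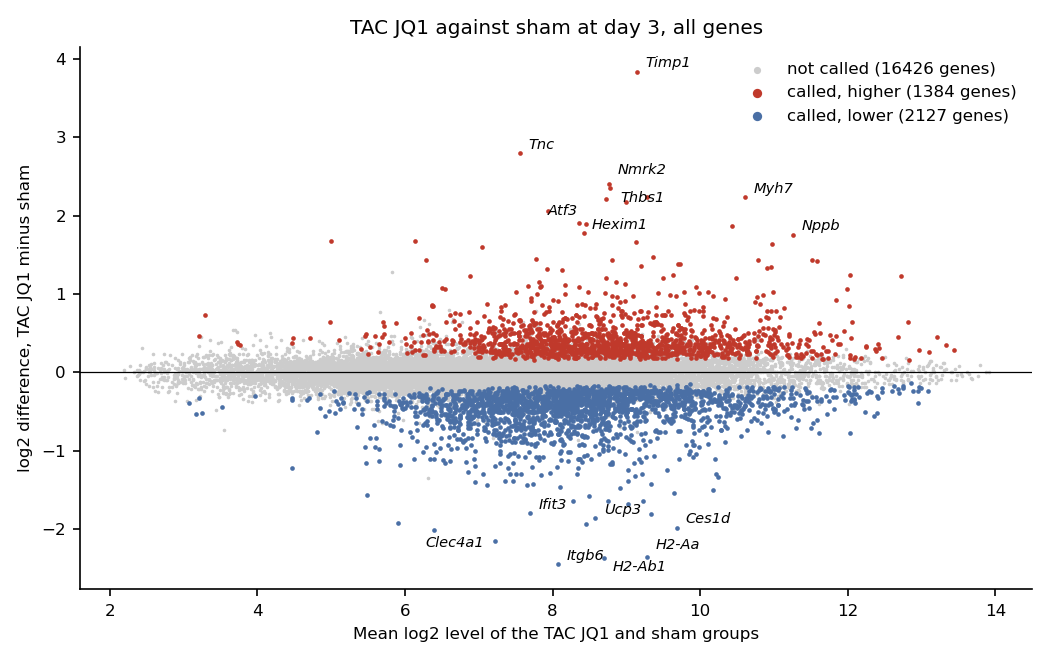
Log2 difference, JQ1-treated TAC minus sham at day 3, of each of 19937 genes (vertical axis) against its mean log2 signal (horizontal axis). Called genes are coloured by direction, and some genes are named. Timp1 stands at 3.84 above sham and Itgb6 at -2.45, and more called genes lie below 0 (2127) than above it (1384).

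The cardiomyocyte stress programme was higher than sham in JQ1-treated TAC hearts and stood about as far from sham as with vehicle. Of 27 stress and fetal genes 19 were called higher and 1 lower, with a median difference of 0.60 (all genes -0.01). In vehicle-treated TAC hearts 19 were higher and 0 lower, with a median of 0.68 (all genes -0.03). Between the TAC groups 2 were higher and 1 lower with JQ1. Nppa, which encodes atrial natriuretic peptide, read 12.31, 12.86 and 12.79 in JQ1-treated TAC hearts, 12.98, 13.22 and 12.38 in vehicle-treated TAC hearts and 11.52, 11.31 and 11.42 in sham hearts. Neither TAC group overlapped sham, and with JQ1 the difference from sham was 1.24 ± 0.18 (adjusted p = 4.56e-05), a 2.36-fold rise. Nppb, for B-type natriuretic peptide, read 11.84, 11.96 and 12.62 in JQ1-treated TAC hearts, 12.56, 12.91 and 12.29 in vehicle-treated TAC hearts and 10.96, 10.42 and 9.75 in sham hearts. Its rise with JQ1 was 1.76 ± 0.32 (adjusted p = 0.000349), and the TAC groups differed by -0.44 (adjusted p = 0.465).

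Myh7, the beta myosin heavy chain of the fetal ventricle, read 11.55, 12.09 and 11.54 in JQ1-treated TAC hearts, 11.90, 11.01 and 11.37 in vehicle-treated TAC hearts and 9.04, 9.85 and 9.59 in sham hearts. That is a rise of 4.71-fold over sham with JQ1 (2.24 ± 0.22, adjusted p = 2.92e-07), and the TAC groups overlapped. Acta1, the skeletal alpha-actin, rose by 1.42 ± 0.29 with JQ1 (adjusted p = 0.00135) and by 1.44 with vehicle. Ankrd1, a stretch-responsive protein of the sarcomere and nucleus, rose by 0.65 ± 0.07 with JQ1 (adjusted p = 2.19e-06) and by 0.77 with vehicle. Fhl1, for a LIM-domain protein that senses stretch at the sarcomere, read 12.27, 12.25 and 12.19 in JQ1-treated TAC hearts, 11.73, 12.96 and 11.87 in vehicle-treated TAC hearts and 10.81, 10.80 and 10.79 in sham hearts, with no overlap between either TAC group and sham. Uck2, a uridine and cytidine kinase, rose by 1.35 ± 0.16 (adjusted p = 3.06e-06). Among genes outside the stress list, Nmrk2, the muscle kinase of nicotinamide riboside, read 9.30, 10.25 and 10.37 in JQ1-treated TAC hearts, 8.76, 10.24 and 8.68 in vehicle-treated TAC hearts and 7.18, 7.99 and 7.53 in sham hearts. It was among the most raised genes (2.40 ± 0.34, adjusted p = 2.94e-05), and the TAC groups were not called different (0.74, adjusted p = 0.187) unless vehicle replicate 2 was left out (1.25, adjusted p = 0.0142).

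Xirp1, an actin-binding protein of the intercalated disc, went farther from sham with JQ1. It read 11.80, 11.54 and 12.04 in JQ1-treated TAC hearts, 10.87, 11.03 and 10.97 in vehicle-treated TAC hearts and 10.21, 10.21 and 10.04 in sham hearts. The 3 groups were separate, and the TAC groups differed by 0.84 (adjusted p = 0.00133). The adult sarcomere genes had a median difference of 0.03 with JQ1. Of the 20 genes 4 were higher and 2 lower (6 and 2 without JQ1 replicate 1), beside 6.94% higher and 10.7% lower of all genes. Myh6 differed from sham by -0.03 ± 0.05 (adjusted p = 0.824). Atp2a2, the calcium pump of the sarcoplasmic reticulum, differed by -0.07 ± 0.05 (adjusted p = 0.467). Tcap, the titin cap, read 11.87, 11.89 and 11.66 in JQ1-treated TAC hearts, 11.15, 10.75 and 11.06 in vehicle-treated TAC hearts and 11.15, 11.38 and 11.42 in sham hearts. It rose by 0.49 ± 0.10 over sham with JQ1 (adjusted p = 0.00135) and was called higher than in vehicle-treated TAC hearts (0.82, adjusted p = 1.49e-05). Mylk4, a myosin light chain kinase family member, fell by 1.29 on the log2 scale with JQ1 (SE 0.26, adjusted p = 0.001) and fell by 1.08 with vehicle (adjusted p = 0.00988, and 0.133 without vehicle replicate 2).

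Natriuretic signalling did not move as one. Of 23 natriuretic, renin-angiotensin and adrenergic genes 8 were higher and 5 lower with JQ1, against 4 higher and 3 lower with vehicle (3 and 1 without vehicle replicate 2). Without JQ1 replicate 1 the first count was 5 higher and 3 lower, and without sham replicate 3 it was 4 and 3. Beside the 2 peptides above, Npr3, the receptor that clears them, read 8.07, 8.03 and 8.41 in JQ1-treated TAC hearts, 8.76, 8.74 and 8.97 in vehicle-treated TAC hearts and 8.97, 8.79 and 9.0 in sham hearts. It was lower with JQ1 than in sham (-0.75 ± 0.12, adjusted p = 7.26e-05) and than with vehicle (-0.65, adjusted p = 0.00058). Npr1, the guanylyl cyclase receptor of both peptides, was 0.35 ± 0.08 higher than sham with JQ1 (adjusted p = 0.00254).

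**Figure D2:**
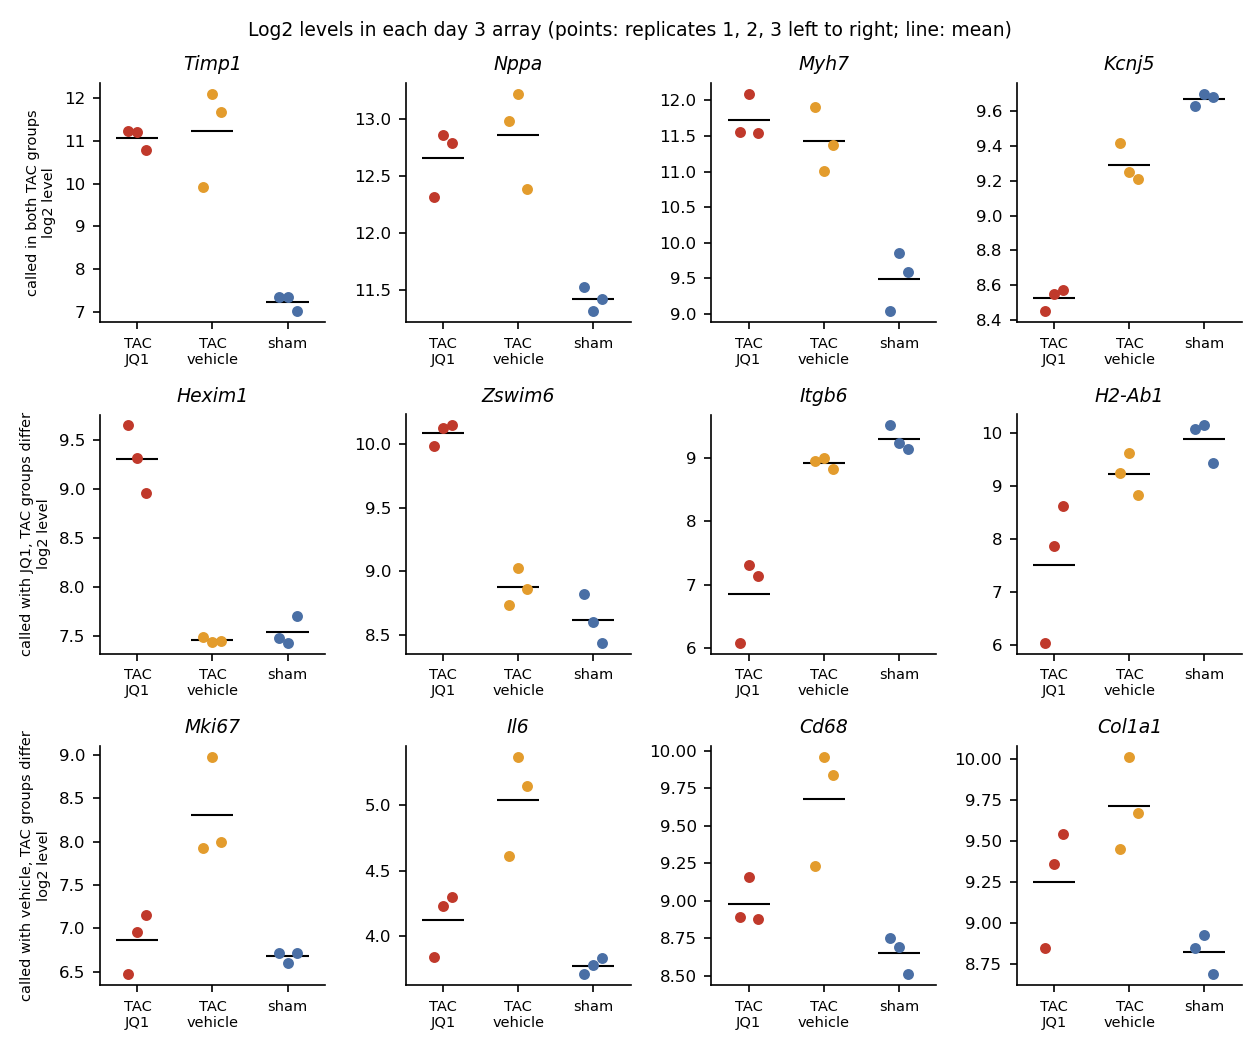
Log2 signal of 12 genes on each day 3 array (points, vertical axis; horizontal bars are group means) in JQ1-treated TAC, vehicle-treated TAC and sham hearts, 3 arrays each. The upper row holds genes called in both TAC groups (Timp1, Nppa, Myh7, Kcnj5), the middle row genes called with JQ1 and not with vehicle (Hexim1, Zswim6, Itgb6, H2-Ab1), and the lower row genes called with vehicle and not with JQ1 (Mki67, Il6, Cd68, Col1a1).

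Matricellular genes, which code for secreted proteins that act on cells rather than build fibres, were among the largest rises. Of 39 matrix and matricellular genes 15 were higher and 6 lower with JQ1 (median 0.10), against 17 higher and 0 lower with vehicle (median 0.32). Without JQ1 replicate 1 the JQ1 count was 14 higher and 2 lower. Between the TAC groups 1 was higher and 5 lower with JQ1, with 0 and 3 without JQ1 replicate 1 and 0 and 2 without vehicle replicate 2. Timp1, an inhibitor of matrix metalloproteinases, read 11.23, 11.21 and 10.78 in JQ1-treated TAC hearts, 9.91, 12.10 and 11.68 in vehicle-treated TAC hearts and 7.34, 7.34 and 7.01 in sham hearts. Its 14.4-fold rise with JQ1 (3.84 ± 0.36, adjusted p = 2.43e-07) was the largest of the called genes, and the TAC groups differed by -0.16 (adjusted p = 0.878). Tnc, for tenascin C, read 8.29, 9.38 and 9.19 in JQ1-treated TAC hearts, 8.32, 10.69 and 9.76 in vehicle-treated TAC hearts and 6.00, 6.22 and 6.25 in sham hearts. Neither TAC group overlapped sham, and with JQ1 the difference was 2.80 ± 0.37 (adjusted p = 1.18e-05).

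Thbs1, thrombospondin 1, an activator of latent TGF-beta, rose by 2.36 ± 0.26 with JQ1 (adjusted p = 1.39e-06) and by 2.26 with vehicle. Postn, periostin of activated fibroblasts, read 11.00, 11.31 and 11.77 in JQ1-treated TAC hearts, 11.61, 12.25 and 11.52 in vehicle-treated TAC hearts and 9.71, 9.41 and 9.35 in sham hearts. The rise with JQ1 was 1.87 ± 0.24 (adjusted p = 7.81e-06), and the TAC groups overlapped. Prg4, lubricin, read 11.19, 9.08 and 9.23 in JQ1-treated TAC hearts, 8.81, 9.95 and 9.63 in vehicle-treated TAC hearts and 7.67, 7.49 and 7.68 in sham hearts. Its difference of 2.22 ± 0.35 (adjusted p = 9.9e-05) was 1.54 without JQ1 replicate 1. The versican gene Vcan, whose product is a large proteoglycan, and Fbln2, fibulin 2, rose by 1.44 ± 0.17 and 0.83 ± 0.08 with JQ1 (adjusted p = 4.86e-06 and 2.43e-07). Ccn2, connective tissue growth factor, rose by 1.43 ± 0.19 with JQ1 (adjusted p = 1.18e-05) and by 1.54 with vehicle.

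Collagen genes of all kinds were counted apart. Of 20 collagen genes 3 were higher and 0 lower with JQ1 (median 0.11), against 9 higher and 0 lower with vehicle (median 0.39), and 5 were lower with JQ1 than with vehicle. These counts leaned on single arrays and on scaling. Without JQ1 replicate 1, 7 were higher than sham with JQ1 and 0 were called between the TAC groups, and without vehicle replicate 2, 6 were higher with vehicle and 1 was lower between the TAC groups. With arrays centred on their median 7 were higher than sham with JQ1, and after a further quantile normalization 5. Col8a1, a short-chain collagen of vessels and injured tissue, rose by 1.39 ± 0.16 with JQ1 (adjusted p = 2.39e-06) and by 1.61 with vehicle. Col1a1, the main chain of type I collagen, read 8.85, 9.36 and 9.54 in JQ1-treated TAC hearts, 9.45, 10.01 and 9.67 in vehicle-treated TAC hearts and 8.85, 8.93 and 8.69 in sham hearts. With JQ1 the difference of 0.43 ± 0.15 was not called (adjusted p = 0.0507), and without replicate 1, the array that lay at the sham level, it was 0.63 (adjusted p = 0.00433). Col3a1, the type III chain, which was named after its values were seen, likewise differed by 0.38 with JQ1 (adjusted p = 0.176) and by 0.64 without that array (adjusted p = 0.0134). Between the TAC groups Col1a1 was called (-0.46, adjusted p = 0.046), but not when that array was left out (adjusted p = 0.321) or vehicle replicate 2 was (adjusted p = 0.284).

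Enzymes that crosslink or process collagen gave 4 higher and 1 lower of 16 with JQ1, against 8 and 0 with vehicle (3 without vehicle replicate 2). Lox, lysyl oxidase, read 9.84, 8.52 and 8.52 in JQ1-treated TAC hearts, 8.35, 9.98 and 9.69 in vehicle-treated TAC hearts and 6.88, 7.18 and 6.65 in sham hearts. It rose by 2.06 ± 0.38 with JQ1 (adjusted p = 0.000485), and its relative Loxl1 by 0.77 ± 0.10 (adjusted p = 9.56e-06). Of 24 genes of TGF-beta and CCN signalling 8 were higher and 1 lower with JQ1 (median 0.15), against 10 and 0 with vehicle (median 0.37), while 6 were lower with JQ1 than with vehicle and 2 higher (4 and 1 without JQ1 replicate 1, 3 and 1 without vehicle replicate 2). Tgfb1, the ligand, rose by 0.64 ± 0.09 with JQ1 (adjusted p = 1.69e-05) and by 0.48 with vehicle. Fstl1, a secreted follistatin-like protein, rose by 0.96 ± 0.13 (adjusted p = 1.32e-05). Tgfb2 read 8.07, 7.73 and 8.05 in JQ1-treated TAC hearts, 8.27, 9.12 and 8.19 in vehicle-treated TAC hearts and 7.65, 7.67 and 7.53 in sham hearts. Its difference of 0.33 with JQ1 was not called (adjusted p = 0.188), whereas that of 0.91 with vehicle was (adjusted p = 0.00114). Ski, which restrains SMAD transcription factors, was higher with JQ1 than in sham (0.55 ± 0.08, adjusted p = 2.57e-05) and than with vehicle (0.43, adjusted p = 0.000639).

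Genes of fuel metabolism were among those lower in both TAC groups. Branched-chain amino acid breakdown, a mitochondrial pathway, had 14 of 20 genes lower and 0 higher with JQ1 (median -0.32), against 15 lower and 1 higher with vehicle (median -0.36). The same 14 genes were called in both TAC groups. The vehicle count leaned on 1 array, since without vehicle replicate 2 it was 3 lower genes, although the median was still -0.27. Without JQ1 replicate 1 the JQ1 count was 13. Bckdhb, a subunit of the branched-chain keto acid dehydrogenase, read 10.10, 10.34 and 10.36 in JQ1-treated TAC hearts, 10.35, 9.92 and 10.41 in vehicle-treated TAC hearts and 10.82, 10.72 and 10.82 in sham hearts. It fell by 0.52 on the log2 scale with JQ1 (SE 0.11, adjusted p = 0.00113). Acad8, which oxidises the valine product, fell by 0.41 (SE 0.06, adjusted p = 2.62e-05), and Ppm1k, the phosphatase that switches the dehydrogenase on, by 0.58 (SE 0.11, adjusted p = 0.000462).

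Fatty acid uptake and oxidation gave 12 of 38 genes lower and 0 higher with JQ1 (median -0.15), against 20 and 0 with vehicle (median -0.29, and 9 lower without vehicle replicate 2). Ucp3, an uncoupling protein that follows fatty acid use, read 8.78, 7.22 and 6.95 in JQ1-treated TAC hearts, 8.0, 7.54 and 7.86 in vehicle-treated TAC hearts and 9.59, 9.62 and 9.33 in sham hearts. The fall of 1.86 with JQ1 (SE 0.30, adjusted p = 0.000113) is 3.64-fold. Fabp5, a fatty acid carrier, read 8.45, 8.64 and 8.51 in JQ1-treated TAC hearts, 9.02, 9.24 and 9.08 in vehicle-treated TAC hearts and 9.23, 9.08 and 9.0 in sham hearts. It was lower with JQ1 than in either other group (against sham -0.57 ± 0.12, adjusted p = 0.00136, and against vehicle-treated TAC -0.57, adjusted p = 0.00206). Of 24 genes of the tricarboxylic acid cycle 8 were lower and 0 higher in each TAC group. With JQ1 the count was 4 without JQ1 replicate 1 and 5 without sham replicate 1, and with vehicle it was 3 without vehicle replicate 2. For 64 respiratory chain subunits the count of 13 lower genes with JQ1 (vehicle 6) was 4 without JQ1 replicate 1, 8 without JQ1 replicate 2, 2 without sham replicate 1, 6 without sham replicate 3 and 2 after centring each array on its median. The vehicle count was 1 without vehicle replicate 2. Ndufs1, a subunit of complex I, fell by 0.29 (SE 0.06, adjusted p = 0.00233). Ces1d, a carboxylesterase, read 8.65, 8.86 and 8.58 in JQ1-treated TAC hearts, 10.01, 8.79 and 9.44 in vehicle-treated TAC hearts and 10.68, 10.57 and 10.79 in sham hearts, a fall of 1.98 with JQ1 (SE 0.25, adjusted p = 6.83e-06).

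Some genes of channels that carry the repolarising and pacemaker currents were lower in each TAC group. Of 24 potassium, sodium and pacemaker channel genes 13 were lower and 0 higher with JQ1 (median -0.38), against 10 lower with vehicle (median -0.19, and 3 without vehicle replicate 2). Between the TAC groups 5 were lower with JQ1 and 0 higher. Kcnj5, a subunit of the acetylcholine-gated potassium channel, read 8.45, 8.55 and 8.57 in JQ1-treated TAC hearts, 9.42, 9.25 and 9.21 in vehicle-treated TAC hearts and 9.63, 9.70 and 9.68 in sham hearts. The 3 groups were separate, and with JQ1 the gene stood at -1.15 ± 0.07 against sham (adjusted p = 7.66e-10) and at -0.77 against vehicle-treated TAC (adjusted p = 3.36e-07). Kcnv2, a modifier subunit, read 6.75, 6.81 and 6.73 in JQ1-treated TAC hearts, 7.35, 6.71 and 7.34 in vehicle-treated TAC hearts and 8.13, 8.25 and 8.09 in sham hearts, and its fall was 1.39 with JQ1 (SE 0.12, adjusted p = 7.15e-08). Kcnip2, the partner of the transient outward channel, read 9.05, 9.86 and 9.78 in JQ1-treated TAC hearts, 10.57, 9.67 and 10.43 in vehicle-treated TAC hearts and 11.00, 10.81 and 10.92 in sham hearts. It fell by 1.34 with JQ1 (SE 0.19, adjusted p = 2.16e-05), and the TAC groups overlapped but were called different (-0.66, adjusted p = 0.0214), which was not so without JQ1 replicate 1 (-0.40, adjusted p = 0.192). Kcnj11, the pore of the ATP-sensitive channel, was lower with JQ1 than in sham (-0.57 ± 0.07, adjusted p = 4.86e-06) and than with vehicle (-0.39, adjusted p = 0.00051). Its regulatory partner Abcc9 fell by 0.71 with JQ1 (SE 0.11, adjusted p = 7.47e-05). Among calcium cycling genes 3 of 27 were higher and 2 lower with JQ1, with 4 and 4 when JQ1 replicate 2 was left out. Slc8a1, the sodium-calcium exchanger, rose by 0.58 ± 0.10 with JQ1 (adjusted p = 0.000179) and by 0.57 with vehicle.

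Among the genes called in both TAC groups that also differed between them, the 78 that lay farther from sham with JQ1 were 22 higher and 56 lower. Besides Xirp1 and Kcnj5 they included Mrgprh, an orphan receptor, which read 6.79, 7.79 and 7.88 in JQ1-treated TAC hearts, 8.70, 8.09 and 8.57 in vehicle-treated TAC hearts and 9.55, 9.38 and 9.34 in sham hearts. The 13 genes that lay nearer to sham with JQ1 were 10 higher and 3 lower. One of them, named after its values were seen, was Fn1, fibronectin, which read 9.34, 10.01 and 10.09 in JQ1-treated TAC hearts, 9.87, 11.21 and 10.75 in vehicle-treated TAC hearts and 8.91, 9.15 and 8.88 in sham hearts. Its difference from sham was 0.84 ± 0.23 with JQ1 (adjusted p = 0.0117), which was no longer called without JQ1 replicate 2 or 3, and 1.63 with vehicle. The TAC groups were no longer called different without JQ1 replicate 1 (adjusted p = 0.183) or vehicle replicate 2 (adjusted p = 0.205).

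The 23 genes called in opposite directions were 4 higher and 19 lower than sham with JQ1. Ccr2, the chemokine receptor of inflammatory monocytes, read 5.03, 5.86 and 5.84 in JQ1-treated TAC hearts, 6.63, 8.91 and 8.16 in vehicle-treated TAC hearts and 6.65, 6.91 and 6.45 in sham hearts. The TAC groups did not overlap (-2.33, adjusted p = 9.92e-05), while the difference of -1.10 from sham (adjusted p = 0.028) was no longer called without JQ1 replicate 1 (adjusted p = 0.17) or without sham replicate 1 or 2. With vehicle it was at 1.23 (adjusted p = 0.029), and at 0.72 without vehicle replicate 2 (adjusted p = 0.332). Hpgds, a prostaglandin D synthase named after its values were seen, read 6.35, 6.39 and 6.33 in JQ1-treated TAC hearts, 7.59, 7.59 and 7.58 in vehicle-treated TAC hearts and 7.24, 7.36 and 7.07 in sham hearts. The 3 groups were separate, and the difference from sham with JQ1 was -0.87 ± 0.11 (adjusted p = 6.53e-06). Fcgr1, the high-affinity antibody receptor of macrophages, was at -0.64 ± 0.12 with JQ1 (adjusted p = 0.000485) and at 0.48 with vehicle (adjusted p = 0.0118, and 0.141 without vehicle replicate 2). Irx4, a ventricular transcription factor, read 8.97, 8.81 and 8.81 in JQ1-treated TAC hearts, 9.71, 9.65 and 9.60 in vehicle-treated TAC hearts and 9.41, 9.36 and 9.36 in sham hearts. Here too the groups were separate, and the TAC groups differed by -0.79 (adjusted p = 6.19e-07). The vehicle calls of Hpgds and Irx4 against sham (0.36 and 0.28) were also lost without vehicle replicate 2 (adjusted p = 0.147 and 0.115).

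Genes of the transcription elongation machinery were changed with JQ1 and not with vehicle. Of 30 genes for BET proteins and elongation factors 11 were higher and 4 lower with JQ1 (median 0.15), against 0 and 0 with vehicle (median 0.01), and 10 were higher and 3 lower between the TAC groups. Without JQ1 replicate 1 these counts were 7 higher and 4 lower against sham, and 4 higher and 2 lower between the TAC groups. Hexim1, which with a small RNA holds P-TEFb inactive, read 9.65, 9.32 and 8.96 in JQ1-treated TAC hearts, 7.49, 7.44 and 7.45 in vehicle-treated TAC hearts and 7.48, 7.43 and 7.70 in sham hearts. It rose 3.43-fold over sham with JQ1 (1.78 ± 0.12, adjusted p = 2.16e-09), while vehicle-treated TAC and sham hearts overlapped. Brd2, itself a BET protein, read 10.52, 10.26 and 10.13 in JQ1-treated TAC hearts, 9.18, 9.32 and 9.38 in vehicle-treated TAC hearts and 9.29, 9.31 and 9.21 in sham hearts. The rise was 1.03 ± 0.08 (adjusted p = 2.28e-08). Polr2a, the largest subunit of RNA polymerase II, read 10.63, 10.12 and 9.99 in JQ1-treated TAC hearts, 8.97, 9.19 and 9.21 in vehicle-treated TAC hearts and 9.02, 9.0 and 9.02 in sham hearts.

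That is a rise of 1.24 ± 0.12 for Polr2a (adjusted p = 2.81e-07), with no overlap between the JQ1-treated arrays and the others. Aff4, a scaffold of the super elongation complex, rose by 0.48 ± 0.07 (adjusted p = 2.55e-05). Among the lower members, Zmynd8, a bromodomain protein that reads acetylated histones, read 7.52, 7.92 and 8.03 in JQ1-treated TAC hearts, 8.96, 8.88 and 9.05 in vehicle-treated TAC hearts and 9.02, 8.81 and 8.95 in sham hearts. Its difference from sham was -1.10 ± 0.09 (adjusted p = 3.31e-08). Brd9, a bromodomain subunit of a SWI/SNF complex, was at -0.40 ± 0.06 (adjusted p = 3.4e-05). One gene of the fixed set is not reported here.

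A list of 17 genes taken to rise under BET inhibition in other cells had 9 higher and 2 lower with JQ1 (median 0.41), against 2 and 2 with vehicle. Hexim1 and Brd2 were among its higher members, Zmynd8 was among the lower ones, and Txnip was not called against sham with JQ1. Of 33 histone genes 13 were higher and 1 lower with JQ1 (median 0.36), against 7 and 0 with vehicle (median 0.21, and 3 without vehicle replicate 2), and 5 were higher and 3 lower between the TAC groups. Histone genes are near copies of one another, so probes may share signal between them. H2bc4, for a histone H2B, read 12.63, 12.34 and 12.36 in JQ1-treated TAC hearts, 11.80, 11.62 and 11.71 in vehicle-treated TAC hearts and 11.60, 11.58 and 11.60 in sham hearts, which is 0.85 ± 0.09 over sham (adjusted p = 4.26e-07). H1f2, a linker histone, rose by 0.94 ± 0.14 (adjusted p = 5.04e-05). H2ax, the variant that is phosphorylated at DNA breaks, read 8.65, 8.23 and 8.30 in JQ1-treated TAC hearts, 7.63, 7.80 and 7.66 in vehicle-treated TAC hearts and 7.32, 7.15 and 7.39 in sham hearts. It was called in both TAC groups, at 1.10 ± 0.10 with JQ1 (adjusted p = 1.62e-07) and 0.41 with vehicle (adjusted p = 0.0132, and 0.118 without vehicle replicate 2).

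Zswim6, a zinc finger gene, read 9.99, 10.13 and 10.15 in JQ1-treated TAC hearts, 8.74, 9.03 and 8.86 in vehicle-treated TAC hearts and 8.82, 8.60 and 8.44 in sham hearts. It rose 2.77-fold over sham (1.47 ± 0.09, adjusted p = 7.66e-10), and the JQ1-treated arrays lay above each of the others. The imprinted genes Peg10 and Peg3 both rose. Peg10 read 9.03, 8.28 and 8.20 in JQ1-treated TAC hearts, 7.10, 7.38 and 7.43 in vehicle-treated TAC hearts and 7.05, 7.26 and 6.85 in sham hearts, 1.45 ± 0.16 over sham (adjusted p = 2.04e-06). Peg3 read 10.86, 8.52 and 8.58 in JQ1-treated TAC hearts, 7.58, 7.70 and 7.99 in vehicle-treated TAC hearts and 7.46, 7.26 and 7.49 in sham hearts. Its difference of 1.91 ± 0.35 (adjusted p = 0.000363) was 1.15 without JQ1 replicate 1.

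Of 296 microRNA genes tested 11 were higher and 8 lower with JQ1, and 3 were called with vehicle. The JQ1 share of 6.42% lies below the 17.6% of all genes, so the count is no result about microRNA loci as a group, and single loci are described. The arrays read RNA from the locus, which may be the primary or precursor transcript, and not the mature microRNA. MicroRNAs bind messenger RNAs mainly through the seed, bases 2 to 8 of the mature strand, and miR-1 and miR-208a are known as muscle and heart microRNAs. Of the 19 called genes 14 had a mature sequence in the RefSeq table (GRCm38.p6). For the loci whose values follow, 1 strand each is shown as a reference for what the locus encodes, with the seed in capitals, and no seed is shared between them. For Mir1a-1 the RefSeq table held only the 5p strand, so the seed shown is not that of its 3p strand.
miR-1a-1-5p (chr2:180389057-180389079, +): aCAUACUUcuuuauaugcccaua
miR-208a-3p (chr14:54949072-54949093, -): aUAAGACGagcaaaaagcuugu
miR-30c-5p (chr1:23291714-23291736, +): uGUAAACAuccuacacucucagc
miR-100-5p (chr9:41531437-41531458, +): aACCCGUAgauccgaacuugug
miR-181b-5p (chr2:38853845-38853868, +): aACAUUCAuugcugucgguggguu
miR-490-3p (chr6:36421800-36421821, +): cAACCUGGaggacuccaugcug

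The locus Mir1a-1 read 7.90, 6.44 and 6.56 in JQ1-treated TAC hearts, 5.58, 5.35 and 5.38 in vehicle-treated TAC hearts and 5.95, 4.94 and 4.98 in sham hearts. Replicate 1 was the highest, the JQ1-treated arrays lay above the others, while vehicle-treated TAC arrays lay within the sham range, and the difference from sham was 1.68 ± 0.32 (adjusted p = 0.00058) with it and 1.21 without it (adjusted p = 0.00623). The other loci shown were named after their values were seen. Mir208a, which lies within the Myh6 gene, read 9.07, 8.64 and 8.57 in JQ1-treated TAC hearts, 7.91, 7.97 and 7.69 in vehicle-treated TAC hearts and 8.59, 7.44 and 7.68 in sham hearts. Its call (0.86 ± 0.23, adjusted p = 0.00995) did not hold when JQ1 replicate 1 (adjusted p = 0.0706), sham replicate 2 or sham replicate 3 was left out. Mir30c-2 read 7.79, 6.17 and 6.41 in JQ1-treated TAC hearts, 5.92, 6.14 and 5.72 in vehicle-treated TAC hearts and 6.32, 5.95 and 5.56 in sham hearts. It rested on the same array (0.85 ± 0.26, adjusted p = 0.0244, and 0.35 with adjusted p = 0.234 without it). Without that array 4 loci were higher and 8 lower.

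The lower loci shown were called also without JQ1 replicate 1. Mir100 read 5.05, 4.83 and 5.13 in JQ1-treated TAC hearts, 5.60, 5.05 and 5.50 in vehicle-treated TAC hearts and 6.03, 5.45 and 5.62 in sham hearts, a fall of 0.70 (SE 0.15, adjusted p = 0.00173). Mir181b-2 fell by 0.65 (SE 0.15, adjusted p = 0.00255) and by 0.84 without replicate 1. Mir490 read 6.78, 6.67 and 6.38 in JQ1-treated TAC hearts, 7.46, 7.20 and 7.21 in vehicle-treated TAC hearts and 7.79, 6.91 and 7.33 in sham hearts. It was lower with JQ1 than in sham (-0.73 ± 0.18, adjusted p = 0.0066, not called without sham replicate 1) and than with vehicle (-0.68, adjusted p = 0.0165).

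The largest fall among the called genes was that of Itgb6, the integrin subunit whose dimer frees TGF-beta from its latent form. It read 6.09, 7.32 and 7.14 in JQ1-treated TAC hearts, 8.95, 8.99 and 8.83 in vehicle-treated TAC hearts and 9.51, 9.24 and 9.14 in sham hearts. The JQ1-treated arrays lay below all others, 5.47-fold below sham (-2.45 ± 0.20, adjusted p = 3.31e-08), and the difference was -2.07 without replicate 1. Lgi1, a secreted protein best known from neurons, read 4.86, 6.97 and 6.58 in JQ1-treated TAC hearts, 7.98, 6.97 and 7.53 in vehicle-treated TAC hearts and 8.55, 8.01 and 8.30 in sham hearts. Its fall was 2.15 (SE 0.33, adjusted p = 7.16e-05). Klhl38, a kelch protein of striated muscle, fell by 1.81 (SE 0.18, adjusted p = 3.23e-07). C1qtnf9, a secreted C1q- and TNF-related protein, read 6.99, 7.74 and 7.64 in JQ1-treated TAC hearts, 8.82, 8.49 and 8.59 in vehicle-treated TAC hearts and 9.20, 9.01 and 9.08 in sham hearts. It fell by 1.64 (SE 0.18, adjusted p = 1.58e-06), with the 3 groups separate.

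Angiogenic and growth factor genes moved in both directions with JQ1. Of 42 genes 6 were higher and 12 lower (median -0.12), and 8 and 10 after centring each array on its median. All genes, too, had more lower than higher calls as deposited. With vehicle 5 were higher and 1 lower (median -0.02), and 1 and 0 without vehicle replicate 2. Between the TAC groups 2 were higher and 11 lower, and 0 and 6 without JQ1 replicate 1. Fgf16, a fibroblast growth factor of the heart, read 7.13, 8.43 and 8.22 in JQ1-treated TAC hearts, 9.06, 9.02 and 8.68 in vehicle-treated TAC hearts and 9.56, 9.50 and 9.67 in sham hearts, and it fell by 1.64 (SE 0.20, adjusted p = 6.49e-06). Angpt1, the ligand that steadies vessels through the TIE2 receptor, read 7.26, 7.99 and 8.14 in JQ1-treated TAC hearts, 8.29, 8.54 and 8.71 in vehicle-treated TAC hearts and 8.97, 8.81 and 8.91 in sham hearts. It was lower than sham (-1.10 ± 0.18, adjusted p = 0.00016) and than vehicle-treated TAC (-0.72, adjusted p = 0.0116, and 0.116 without JQ1 replicate 1). Nrp1, a co-receptor of VEGF, fell by 0.59 (SE 0.10, adjusted p = 0.000256). Hbegf, an EGF-like growth factor, moved the other way, with 0.78 ± 0.16 over sham (adjusted p = 0.00162) beside 0.72 with vehicle.

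Cardiac transcription factors divided. Of 29 genes 7 were higher and 6 lower with JQ1, against 2 and 1 with vehicle (1 and 0 without vehicle replicate 2), and the JQ1 count was 4 and 4 without sham replicate 1. Hdac9, a class II histone deacetylase that restrains MEF2, read 8.36, 8.4 and 8.44 in JQ1-treated TAC hearts, 9.25, 9.20 and 9.04 in vehicle-treated TAC hearts and 9.21, 9.27 and 9.25 in sham hearts. It fell by 0.84 (SE 0.07, adjusted p = 3.31e-08), with all 3 JQ1-treated arrays below the rest. Hand2, a helix-loop-helix factor of the ventricle, read 9.40, 9.47 and 9.17 in JQ1-treated TAC hearts, 8.71, 8.76 and 8.72 in vehicle-treated TAC hearts and 8.47, 8.64 and 8.70 in sham hearts, a rise of 0.75 ± 0.11 (adjusted p = 5.04e-05). Tbx20, a T-box factor, was raised in both TAC groups, by 0.45 ± 0.07 with JQ1 (adjusted p = 8.41e-05) and 0.51 with vehicle.

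MHC class II genes, which present peptides to helper T cells, and interferon-stimulated genes were lower in part with JQ1. Of 19 MHC class II and complement genes 8 were lower and 0 higher (median -0.30), against 0 lower and 2 higher with vehicle (median -0.01), and 7 were lower with JQ1 than with vehicle. The last count was 4 without JQ1 replicate 1 and 4 without vehicle replicate 2, where 0 were higher with vehicle. H2-Ab1, a class II beta chain, read 6.05, 7.86 and 8.62 in JQ1-treated TAC hearts, 9.24, 9.62 and 8.83 in vehicle-treated TAC hearts and 10.07, 10.14 and 9.43 in sham hearts. The JQ1-treated arrays lay below the rest and were widely spread, and the difference of -2.37 ± 0.39 (adjusted p = 0.000141) was -1.64 without replicate 1. H2-Aa, the partner alpha chain, read 6.73, 8.38 and 9.20 in JQ1-treated TAC hearts, 9.76, 10.06 and 9.44 in vehicle-treated TAC hearts and 10.71, 10.67 and 10.01 in sham hearts, with a difference of -2.36 ± 0.38 (adjusted p = 0.000113). H2-Eb1, another class II beta chain, was at -1.68 ± 0.22 (adjusted p = 1.19e-05). Cd74, the invariant chain that guides class II molecules, was at -1.64 ± 0.31 (adjusted p = 0.000647) and at -1.08 without replicate 1. Without that array 6 of the 19 genes were lower.

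Of 23 interferon-stimulated genes 9 were lower and 0 higher with JQ1 (median -0.30), against 0 and 0 with vehicle (median -0.07), and 7 were lower between the TAC groups. Without JQ1 replicate 1 the JQ1 count was 6 and 4 were lower between the TAC groups, and the latter count was 5 without vehicle replicate 2. Ifit3, which binds partner IFIT proteins that sense viral RNA, read 6.38, 6.76 and 7.27 in JQ1-treated TAC hearts, 8.59, 8.65 and 8.07 in vehicle-treated TAC hearts and 8.64, 8.56 and 8.59 in sham hearts. It lay 3.46-fold below sham (-1.79 ± 0.34, adjusted p = 0.000575), with no overlap. Rsad2, viperin, read 7.15, 7.56 and 8.03 in JQ1-treated TAC hearts, 8.43, 8.14 and 8.18 in vehicle-treated TAC hearts and 8.77, 8.51 and 8.56 in sham hearts, a fall of 1.03 (SE 0.22, adjusted p = 0.00148). Gbp3, a guanylate-binding protein, read 6.77, 6.61 and 6.75 in JQ1-treated TAC hearts, 7.67, 7.43 and 7.20 in vehicle-treated TAC hearts and 7.98, 7.75 and 7.85 in sham hearts. Its fall of 1.15 (SE 0.18, adjusted p = 7.74e-05) was even over the 3 arrays. Oas2 and Oasl2, of the oligoadenylate synthetase family, fell by 1.08 and 1.28 (adjusted p = 0.000707 and 0.00161).

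Promoters of the 2 families carry known elements: the Y box of MHC class II genes, bound by NF-Y, and the interferon-stimulated response element, bound by IRF and STAT factors. The windows of 4 of the lower genes are shown to let the elements be seen, from RefSeq (GRCm38.p6), each running from 250 bases before to 50 after the start in the direction of the gene, with matches in capitals. The letters searched on both strands were CTGATTGG for the Y box and GAAANNGAAA (TTTCNNTTTC on the other strand) for the response element core, and no window shown holds both.
H2-Aa (chr17:34287774-34288073, -): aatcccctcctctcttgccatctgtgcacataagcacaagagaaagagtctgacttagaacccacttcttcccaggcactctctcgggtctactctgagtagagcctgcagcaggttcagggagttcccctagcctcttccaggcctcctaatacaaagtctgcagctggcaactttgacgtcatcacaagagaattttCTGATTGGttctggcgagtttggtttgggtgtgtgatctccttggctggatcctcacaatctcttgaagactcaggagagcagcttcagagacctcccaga
H2-Eb1 (chr17:34305617-34305916, +): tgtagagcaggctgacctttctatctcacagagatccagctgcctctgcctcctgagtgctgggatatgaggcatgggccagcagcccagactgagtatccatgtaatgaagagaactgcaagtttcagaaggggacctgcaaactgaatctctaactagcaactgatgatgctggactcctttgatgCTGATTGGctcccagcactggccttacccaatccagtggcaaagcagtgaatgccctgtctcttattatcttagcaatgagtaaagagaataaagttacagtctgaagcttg
Ifit3 (chr19:34583279-34583578, +): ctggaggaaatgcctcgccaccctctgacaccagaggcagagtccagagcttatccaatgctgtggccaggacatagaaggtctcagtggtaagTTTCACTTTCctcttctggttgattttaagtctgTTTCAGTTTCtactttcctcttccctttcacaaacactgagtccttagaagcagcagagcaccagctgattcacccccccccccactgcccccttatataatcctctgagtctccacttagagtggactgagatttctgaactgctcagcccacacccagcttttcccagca
Rsad2 (chr12:26456403-26456702, -): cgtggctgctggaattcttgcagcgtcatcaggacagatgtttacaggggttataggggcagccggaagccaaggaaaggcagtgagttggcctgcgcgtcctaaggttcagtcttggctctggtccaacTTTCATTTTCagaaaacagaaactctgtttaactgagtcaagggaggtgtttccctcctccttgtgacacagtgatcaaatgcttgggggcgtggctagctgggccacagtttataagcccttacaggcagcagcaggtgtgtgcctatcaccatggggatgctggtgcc

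The Y box letters end 43 bases before the start of H2-Aa and 54 bases before that of H2-Eb1. Ifit3 holds 2 matches to the response element core, 146 and 112 bases before its start, and Rsad2 holds 1 at 110 bases. The Y box letters were in 3 of 11 MHC class II and complement genes with a window in the table, and in 2 of the 6 that were lower, against 4.7% of 27025 genes with a window. The response element letters were in 7 of 17 interferon-stimulated genes with a window, and in 4 of the 7 that were lower, against 3.99% of those genes. A match shows only that these letters stand there.

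Some genes of the glutathione and NRF2 list and of the glucocorticoid-responsive list were higher with JQ1, unevenly over the arrays. Of 30 glutathione and NRF2 target genes 11 were higher and 2 lower with JQ1 (median 0.14), against 3 and 2 with vehicle (median 0.07, and 0 and 1 without vehicle replicate 2), and 8 and 2 with JQ1 without JQ1 replicate 1. Their mean over the list, relative to the sham mean, was 0.62, 0.21 and 0.06 in the JQ1-treated arrays. Gclc, the rate-limiting enzyme of glutathione synthesis, read 10.45, 9.98 and 9.87 in JQ1-treated TAC hearts, 8.94, 8.98 and 8.99 in vehicle-treated TAC hearts and 8.99, 8.88 and 8.82 in sham hearts. It rose by 1.2 ± 0.10 (adjusted p = 3.31e-08), and each JQ1-treated array lay above the others. Nfe2l2, for NRF2 itself, rose by 0.49 ± 0.08 (adjusted p = 7.62e-05). Hmox1, haem oxygenase 1, read 11.29, 10.48 and 8.48 in JQ1-treated TAC hearts, 8.26, 9.91 and 9.81 in vehicle-treated TAC hearts and 7.86, 8.07 and 7.76 in sham hearts. It was called against sham (2.18 ± 0.49, adjusted p = 0.00249), and the TAC groups overlapped (0.76, adjusted p = 0.396).

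Of 18 glucocorticoid-responsive genes 8 were higher and 1 lower with JQ1 (median 0.31), against 1 and 1 with vehicle, and 4 and 2 without JQ1 replicate 1. The list mean relative to sham was 1.05, 0.50 and 0.02 in the 3 JQ1-treated arrays, so that replicate 3 stood at the sham level. Mt2, a metallothionein, read 13.45, 13.36 and 13.18 in JQ1-treated TAC hearts, 12.40, 12.57 and 12.86 in vehicle-treated TAC hearts and 12.09, 12.27 and 11.95 in sham hearts, and its rise was 1.23 ± 0.18 (adjusted p = 4.18e-05). Lcn2, lipocalin 2, read 11.76, 10.09 and 9.33 in JQ1-treated TAC hearts, 9.79, 10.39 and 11.03 in vehicle-treated TAC hearts and 8.21, 8.44 and 7.82 in sham hearts. Its difference from sham was 2.24 ± 0.47 with JQ1 (adjusted p = 0.00152) and 2.24 with vehicle, and 1.55 with JQ1 without replicate 1. Pnmt, the enzyme that makes adrenaline, was at 1.0 ± 0.22 (adjusted p = 0.00281), and at 0.59 without that array. Nr3c1, the glucocorticoid receptor, was at -0.36 ± 0.09 (adjusted p = 0.0041). Whether hormone levels or handling took part in the spread of these genes was not tested.

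**Figure D3:**
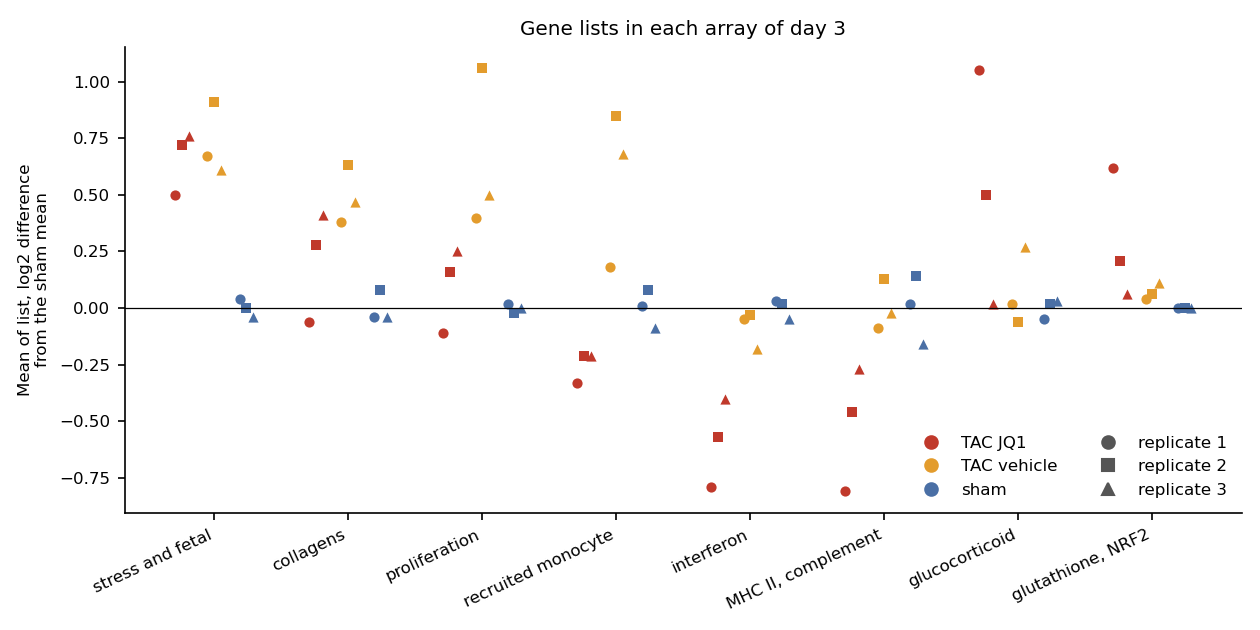
Mean log2 difference from the sham mean over the members of 8 gene lists (vertical axis) for each day 3 array (points) in JQ1-treated TAC, vehicle-treated TAC and sham hearts, 3 arrays each. The glucocorticoid-responsive genes spread from 0.02 to 1.05 over the JQ1-treated arrays, whereas the cell cycle genes lie between -0.11 and 0.25 in JQ1-treated arrays and between 0.40 and 1.06 in vehicle-treated TAC arrays.

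Immediate early genes, the first to be transcribed after a stimulus, were higher with JQ1. Of 26 genes 15 were higher and 0 lower with JQ1 (median 0.44), against 6 and 0 with vehicle (median 0.32, and 2 without vehicle replicate 2), and 4 were higher with JQ1 than with vehicle. Atf3, a stress-induced repressor, read 8.82, 8.96 and 10.40 in JQ1-treated TAC hearts, 7.98, 8.32 and 8.38 in vehicle-treated TAC hearts and 7.65, 7.58 and 7.26 in sham hearts. It rose 3.73-fold over sham (1.90 ± 0.28, adjusted p = 3.65e-05) and was higher than with vehicle (1.17, adjusted p = 0.00657). Jund, an AP-1 subunit, read 9.60, 9.56 and 9.58 in JQ1-treated TAC hearts, 8.88, 9.08 and 8.83 in vehicle-treated TAC hearts and 8.79, 8.47 and 8.56 in sham hearts. Its rise was 0.97 ± 0.10 (adjusted p = 7.92e-07), with JQ1-treated arrays above the rest. Egr1, a zinc finger factor, was at 1.12 ± 0.19 (adjusted p = 0.000238) and Btg2, an anti-proliferative gene, at 1.01 ± 0.14 (adjusted p = 1.57e-05). Myc, a growth regulator that falls under BET inhibition in many tumour cells, read 8.08, 7.76 and 7.81 in JQ1-treated TAC hearts, 7.62, 8.20 and 8.06 in vehicle-treated TAC hearts and 7.14, 7.27 and 7.21 in sham hearts. It was higher than sham with JQ1 (0.67 ± 0.16, adjusted p = 0.00389), and the TAC groups differed by -0.08 (adjusted p = 0.855).

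Protein-folding and amino acid stress genes were called in shares that differed between the lists, beside 17.6% of all genes with JQ1. The unfolded protein response had 5 of 24 higher and 0 lower with JQ1 (8 without JQ1 replicate 3), against 6 and 1 with vehicle (2 and 0 without vehicle replicate 2). Ern1, the sensor IRE1, was 0.43 ± 0.08 over sham with JQ1 (adjusted p = 0.000466) and 0.53 over vehicle-treated TAC hearts (adjusted p = 9.95e-05). Of 22 ATF4 and amino acid stress genes 6 were higher and 1 lower in each TAC group, and 1 and 1 with vehicle without vehicle replicate 2. Slc7a5, an amino acid transporter, read 9.02, 9.0 and 8.94 in JQ1-treated TAC hearts, 8.29, 8.78 and 8.44 in vehicle-treated TAC hearts and 8.09, 7.89 and 7.91 in sham hearts. It rose by 1.03 ± 0.10 with JQ1 (adjusted p = 4.09e-07) and was higher than with vehicle (0.49, adjusted p = 0.00258). Heat shock and chaperone genes gave 7 higher and 3 lower of 17 with JQ1, against 2 and 2 with vehicle (0 and 1 without vehicle replicate 2), and Hspb1, a small heat shock protein, rose by 0.93 ± 0.16 (adjusted p = 0.000187).

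Cell division genes were lower with JQ1 than with vehicle. Of 47 cell cycle and proliferation genes 4 were higher and 2 lower with JQ1 (median 0.10), against 28 and 0 with vehicle (median 0.59, and 17 without vehicle replicate 2), and 25 were lower with JQ1 than with vehicle. The difference between the TAC groups was called for 15 genes without JQ1 replicate 1 and for 14 without vehicle replicate 2, and the JQ1 count was 1 higher and 2 lower without sham replicate 1 or 3. Mki67, the marker of cycling cells, read 6.47, 6.96 and 7.15 in JQ1-treated TAC hearts, 7.93, 8.98 and 8.0 in vehicle-treated TAC hearts and 6.72, 6.6 and 6.71 in sham hearts. JQ1-treated and sham arrays overlapped (0.18 ± 0.22, adjusted p = 0.689), and the TAC groups differed by -1.44 (adjusted p = 0.000108). Ccna2, cyclin A2, read 6.43, 7.14 and 7.33 in JQ1-treated TAC hearts, 7.77, 9.08 and 8.0 in vehicle-treated TAC hearts and 6.70, 6.6 and 6.59 in sham hearts. The difference between the TAC groups was -1.32 (adjusted p = 0.00174). Top2a, the topoisomerase of dividing cells, and Kif11, a spindle motor, differed between the TAC groups by -1.09 and -1.02 (adjusted p = 0.00429 and 0.00118). A p that misses the threshold does not show that JQ1-treated hearts were at the sham level, and for Top2a the difference from sham was 0.48 ± 0.24 (adjusted p = 0.211).

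Some inflammatory genes too were lower with JQ1 than with vehicle. Of 41 cytokines, chemokines and NF-kappaB targets 0 were higher and 6 lower with JQ1 (median -0.03), against 8 and 0 with vehicle (median 0.13), and 13 were lower with JQ1 than with vehicle. Without vehicle replicate 2, 3 were higher with vehicle and 6 lower between the TAC groups, and without JQ1 replicate 1, 7 were lower between the TAC groups. Il6, interleukin 6, read 3.84, 4.23 and 4.30 in JQ1-treated TAC hearts, 4.61, 5.37 and 5.15 in vehicle-treated TAC hearts and 3.71, 3.78 and 3.83 in sham hearts. These are low signals, and the TAC groups did not overlap (-0.92, adjusted p = 0.00403), while the difference from sham with JQ1 was 0.35 ± 0.20 (adjusted p = 0.29). Cxcl16, a chemokine and scavenger receptor, read 6.90, 7.31 and 7.55 in JQ1-treated TAC hearts, 8.22, 8.58 and 8.23 in vehicle-treated TAC hearts and 8.39, 8.03 and 8.06 in sham hearts. It was lower than sham with JQ1 (-0.91 ± 0.16, adjusted p = 0.000325), with vehicle-treated TAC and sham arrays overlapping. Cxcl9, a chemokine induced by interferon gamma, was at -1.29 ± 0.23 (adjusted p = 0.000313).

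The 45 genes called lower with vehicle and not with JQ1, with the TAC groups called different, were led by Txnip. That count leaned on 1 array, since it was 8 without vehicle replicate 2. This glucose-responsive thioredoxin-binding protein read 12.77, 12.27 and 12.21 in JQ1-treated TAC hearts, 11.69, 11.72 and 11.61 in vehicle-treated TAC hearts and 12.52, 12.37 and 12.41 in sham hearts. JQ1-treated and sham arrays overlapped and differed by -0.02 ± 0.14 (adjusted p = 0.972), while the TAC groups differed by 0.74 (adjusted p = 0.000989). Gadd45a, a growth arrest gene, read 7.89, 8.12 and 7.94 in JQ1-treated TAC hearts, 7.53, 7.27 and 7.43 in vehicle-treated TAC hearts and 8.13, 7.98 and 7.97 in sham hearts. It showed the same order, with a difference between the TAC groups of 0.58 (adjusted p = 6.98e-05).

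**Figure D4:**
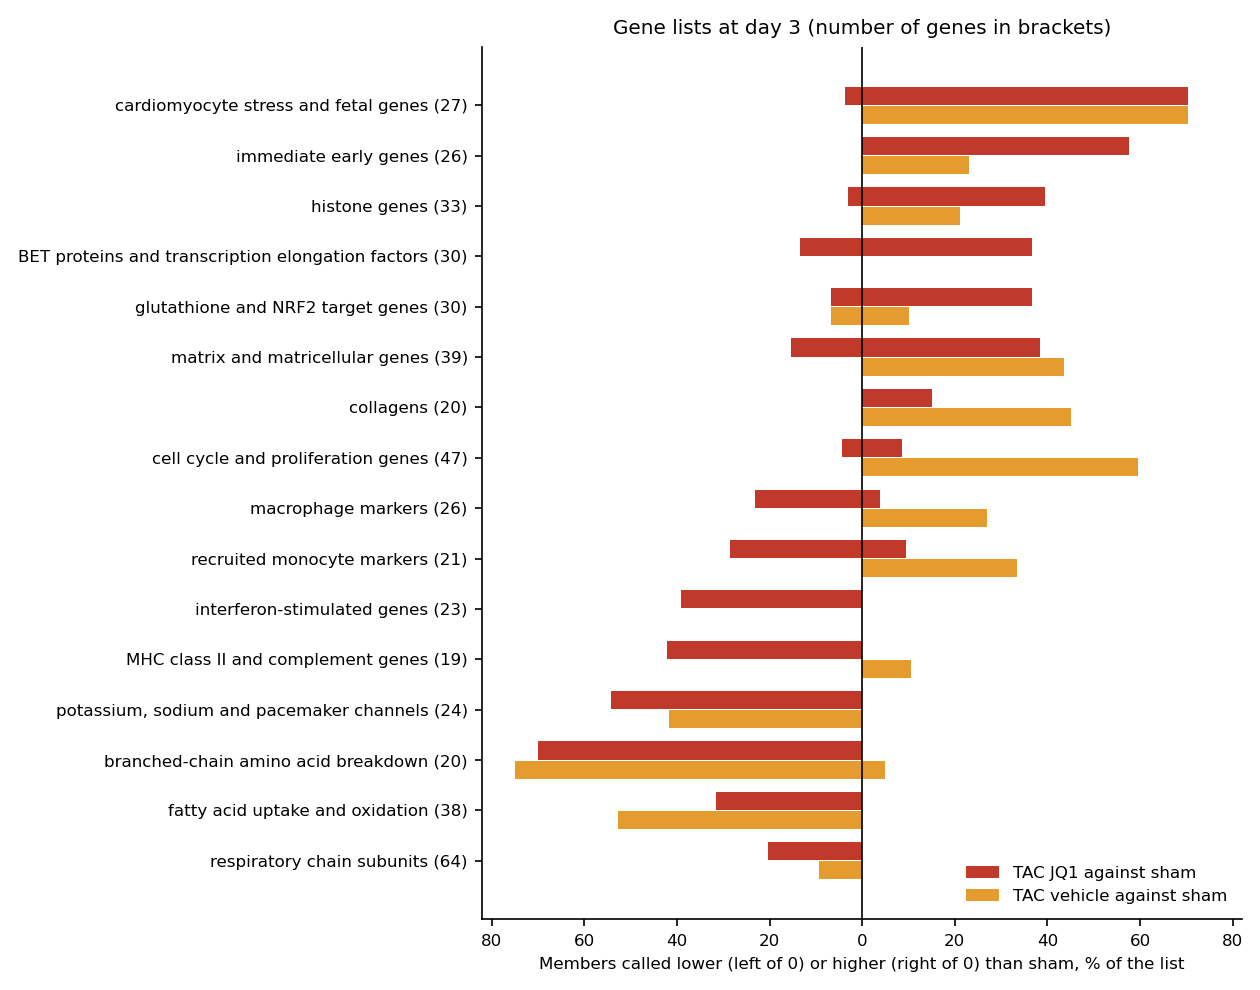
Percent of the members of 16 gene lists called lower (left of 0) or higher (right of 0) than sham at adjusted p under 0.05 (horizontal axis), in JQ1-treated TAC (upper bar of each pair) and vehicle-treated TAC hearts (lower bar). The cell cycle list has 4 of 47 genes higher with JQ1 and 28 with vehicle, whereas the stress list has 19 of 27 higher in each.

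Markers of the cells that make up the heart were read beside these results, since in bulk tissue fewer cells of a type and less RNA per cell cannot be told apart. Of 26 macrophage markers 1 was higher and 6 lower with JQ1 (median -0.09), against 7 and 0 with vehicle (median 0.41), and 15 were lower with JQ1 than with vehicle. The JQ1 count was 1 higher and 3 lower without JQ1 replicate 1 or sham replicate 1, and the vehicle count was 2 higher without vehicle replicate 2, and 8 were lower between the TAC groups without JQ1 replicate 1 as without vehicle replicate 2. The mean level of the list was 8.02 to 8.09 in JQ1-treated TAC arrays, 8.36 to 8.72 in vehicle-treated TAC arrays and 8.05 to 8.26 in sham arrays. Mpeg1, macrophage perforin, read 6.30, 6.28 and 6.43 in JQ1-treated TAC hearts, 7.41, 8.08 and 7.87 in vehicle-treated TAC hearts and 7.31, 7.51 and 7.10 in sham hearts. It was lower than sham with JQ1 (-0.97 ± 0.17, adjusted p = 0.000315) and than vehicle-treated TAC (-1.45, adjusted p = 8.52e-06). Cd68, a lysosomal marker of macrophages named after its values were seen, differed from sham by 0.33 ± 0.15 with JQ1 (adjusted p = 0.147) and by 1.03 with vehicle (adjusted p = 0.000159). C1qa, made by resident macrophages and also named afterwards, differed by 0.28 with JQ1 (adjusted p = 0.114), and Lyve1, of resident macrophages and lymphatics, was 0.78 ± 0.16 higher (adjusted p = 0.00101).

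Of 21 recruited monocyte markers 2 were higher and 6 lower with JQ1 (median -0.10), against 7 and 0 with vehicle (median 0.49, and 2 without vehicle replicate 2), and 12 were lower with JQ1 than with vehicle (8 without vehicle replicate 2). Clec4a1, a C-type lectin of myeloid cells, read 5.80, 5.37 and 5.01 in JQ1-treated TAC hearts, 7.49, 8.06 and 7.71 in vehicle-treated TAC hearts and 7.66, 7.48 and 7.07 in sham hearts. It was 4.03-fold lower than sham with JQ1 (-2.01 ± 0.24, adjusted p = 4.28e-06), with no overlap. Clec12a, a related lectin, read 5.57, 6.66 and 6.50 in JQ1-treated TAC hearts, 8.03, 9.07 and 8.13 in vehicle-treated TAC hearts and 7.86, 7.37 and 7.71 in sham hearts, a difference of -1.40 ± 0.27 (adjusted p = 0.000696). The 2 members that went the other way with JQ1 were Vcan and Fn1, which also belong to the matrix list above. Relative to sham, the macrophage list mean was 0.18, 0.54 and 0.50 with vehicle, then -0.16, -0.08 and -0.15 with JQ1. In the same order the recruited monocyte list gave 0.18, 0.85 and 0.68, then -0.33, -0.21 and -0.21. The cytokine list gave 0.04, 0.34 and 0.36, then -0.20, -0.06 and -0.09. The interferon list gave -0.05, -0.03 and -0.18, then -0.79, -0.57 and -0.40. The MHC class II and complement list gave -0.09, 0.13 and -0.02, then -0.81, -0.46 and -0.27. The part of macrophages and monocytes in these results was not tested.

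Markers of other cell types were counted in the same way, beside 17.6% of all genes called with JQ1. Of 22 endothelial markers 5 were lower and 0 higher with JQ1 (median -0.15), against 0 and 0 with vehicle, and Emcn, endomucin, fell by 0.47 (SE 0.11, adjusted p = 0.00465). The level of the list was 9.53 to 9.68 in JQ1-treated TAC arrays, 9.59 to 9.67 in vehicle-treated TAC arrays and 9.70 to 9.80 in sham arrays. Both TAC groups thus lay below sham. The mean of the angiogenic list relative to sham was -0.30, -0.15 and -0.07 with JQ1. With vehicle it was 0.00, 0.05 and 0.03. Any link between these lists was not tested. Fibroblast markers gave 5 higher and 1 lower of 18 with JQ1, against 7 and 1 with vehicle (4 and 0 without vehicle replicate 2), with a level of 9.24 to 9.35 in JQ1-treated TAC arrays, 9.46 to 9.62 in vehicle-treated TAC arrays and 9.10 to 9.21 in sham arrays. Mfap5, a microfibril protein that is also a member of the matrix list, rose by 1.09 ± 0.18 with JQ1 (adjusted p = 0.000174) and by 1.28 with vehicle. Smooth muscle and pericyte markers gave 4 higher and 1 lower of 14 in each TAC group, with 1 and 1 for JQ1 without JQ1 replicate 1 and 2 and 0 for vehicle without vehicle replicate 2. B cell markers gave 1 lower of 10, namely Bank1 (-1.12 ± 0.14, adjusted p = 8.86e-06), and the mean level of that list was 6.07 to 6.47 in JQ1-treated TAC arrays, 6.42 to 6.55 in vehicle-treated TAC arrays and 6.43 to 6.6 in sham arrays. T and NK cell markers gave 1 lower of 17, neutrophil markers 1 higher of 16 and red cell genes 0 of 7.

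The same comparison at later days had its own TAC and sham arrays. JQ1-treated TAC hearts differed from sham in 2097 genes at day 11 (10.5%) and in 3976 genes at day 28 (19.9%). Of the 3511 genes called at day 3, 3139 differed in the same direction at day 11 and 2850 at day 28, whatever their p. Called in the same direction were 1245 genes at day 11, which are 35.5% of the day 3 genes and 59.4% of the day 11 genes, and 1580 genes at day 28, which are 45% of the day 3 genes and 39.7% of the day 28 genes. At both later days 921 genes were called in the same direction as at day 3, and at neither 1504. Called in the opposite direction were 7 genes at day 11 and 105 at day 28.

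The difference itself was tested between day 3 and the mean of days 11 and 28, and 691 genes (3.47%) were called. Of these 421 were also called at day 3, and 404 of them lay farther from sham at day 3 than later. The day test holds the day 3 difference by which the 421 genes were picked, so that split follows largely from the selection. Among the genes called with JQ1 and not with vehicle, Hexim1 stood at 1.78 over sham at day 3, 1.83 at day 11 and 2.06 at day 28, and Zswim6 at 1.47, 1.44 and 1.44. Kcnj5 stood at -1.15, -1.03 and -1.16. Timp1 differed from sham by 3.84 at day 3, 1.71 at day 11 and 1.31 at day 28, and Tnc by 2.80, 0.55 and 0.36. Between days Hexim1, Zswim6 and Kcnj5 were not called different (adjusted p = 0.704, 0.956 and 0.883), whereas Timp1 and Tnc were (adjusted p = 0.00717 and 0.00717). Postn, with 1.87, 2.15 and 1.34, was not called (adjusted p = 0.919).

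Of the 23 interferon-stimulated genes 0 were higher and 9 lower at day 3, 2 and 0 at day 11, and 4 and 0 at day 28. Rsad2 stood at -1.03 at day 3, 0.92 at day 11 and 0.77 at day 28 (day test, adjusted p = 0.00122), and Ifit3 at -1.79, 0.30 and 0.26 (adjusted p = 0.00875). For MHC class II, H2-Ab1 stood at -2.37, -1.11 and -1.25 (adjusted p = 0.188). Cell cycle genes gave 4 higher and 2 lower of 47 at day 3, 29 and 0 at day 11, and 6 and 2 at day 28. Mki67 stood at 0.18 at day 3, 1.51 at day 11 (adjusted p = 7.51e-05) and 0.30 at day 28. Histone genes had 13 higher of 33 at day 3, 24 at day 11 and 22 at day 28. Xirp1, raised by 1.64 at day 3, stood at 0.51 at day 11 and -0.05 at day 28 (adjusted p = 0.00122). Rbm24, an RNA-binding regulator of muscle splicing, was raised by 0.54 ± 0.08 at day 3 (adjusted p = 2.45e-05) and stood at -0.04 and -0.17 later. Nfic, a nuclear factor I gene, differed by 0.01 at day 3, -0.40 at day 11 and -1.23 at day 28, and gave the day test one of its smallest p-values (adjusted p = 0.000112).

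**Figure D5:**
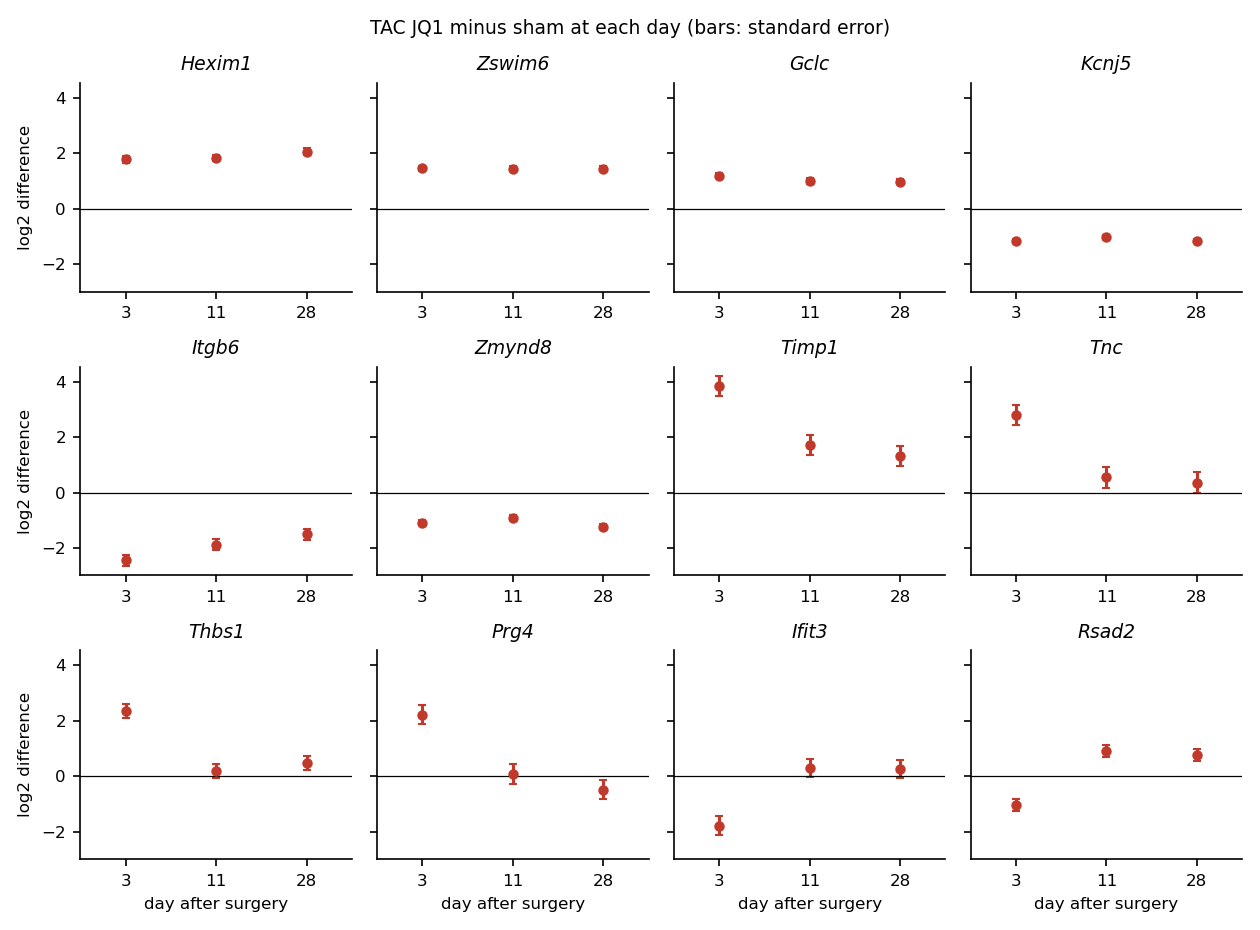
Log2 difference, JQ1-treated TAC minus sham (vertical axis, bars are the SE), at days 3, 11 and 28 for 12 genes. Hexim1, Zswim6, Gclc, Kcnj5, Itgb6 and Zmynd8 lie on the same side of sham at each day, Timp1, Tnc, Thbs1 and Prg4 are farthest from sham at day 3, and Ifit3 and Rsad2 lie below 0 at day 3 and above 0 at the later days.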

How the data were processed

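Heart RNA of 9 groups of 3 samples was hybridised to 27 whole-transcript arrays with the Ambion WT kit and Affymetrix labelling, per the labels' protocols. The authors deposited log2 signals of 34760 probe sets. The method of their normalization was not given in the sources used here, and limma, without a version, is named in the submitters' processing notes. Array medians lay between 6.954 and 7.043, and values were used as deposited. Beyond littermates, the labels do not say which arrays come from separate animals, so p-values measure the spread between arrays.

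Of the probe sets 21640 listed 1 gene, 1321 several and 11799 none. Only the first kind entered the gene tests. Where 954 genes had several, the probe set brightest on average over all arrays stood for the gene, and 19937 genes were tested. All 27 arrays were fitted in limma 3.58.1 (lmFit, then eBayes; R 4.3.3; version 1.17.8 of data.table) by 1 mean per group, with 18 residual and 4.9 prior degrees of freedom and a median residual SD of 0.1274. Adjusted p-values are Benjamini-Hochberg values over 19937 genes, taken comparison by comparison. The fit was tested on simulated data with 50 genes planted at each of 4 sizes of change, which found 8%, 82%, 96% and 100% of those at 1.2-, 1.5-, 2- and 4-fold, with 2 of 145 calls not planted.

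The comparison, the 45 gene lists (1062 of 1195 names matched) and the tests were chosen with earlier results of these data known. Lists are described by counts of members called over all genes and by medians. Genes named were a fixed set; the 15 largest differences from sham per direction among called genes whose arrays did not overlap; the 10 largest per direction of those called with JQ1 and not with vehicle, and the reverse; from each list its 6 called members of smallest p, or 2 members if no call was made; and the 6 smallest p per direction between days. Not every gene of the rule is printed, and those outside it are said to have been named after their values were seen. Same-numbered arrays of different groups correlated at -0.21 to 0.283 in their deviations from group means, so the numbers were not taken to pair them. Sequences come from RefSeq tables (GRCm38.p6), and probe coordinates were not used. Plots were drawn with pandas 2.3.3, NumPy 2.4.6 and Matplotlib 3.10.9.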

Additional observations from a re-analysis of the deposited data

Results flagged for a closer look

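Of the genes named here, 31 differed between day 3 and the mean of days 11 and 28 in how far JQ1-treated TAC hearts stood from sham, by the limma contrast of the difference itself (adjusted p under 0.05). The values that follow are that difference on the log2 scale, day 3 minus later days. Matrix and signalling genes stood higher at day 3, with Prg4 at 2.42, Timp1 at 2.34, Tnc at 2.34, Thbs1 at 2.02 and Ccn2 at 0.87. The growth factor gene Hbegf was at 0.83. Stress and heart muscle genes gave 1.41 for Xirp1, 1.2 for Myh7, 0.93 for Uck2, 0.82 for Fhl1, 0.80 for Hspb1, 0.65 for Rbm24, 0.48 for Slc8a1 and 0.38 for Tbx20. Genes of transcription gave 0.82 for Nfic, 0.69 for Polr2a, 0.61 for Btg2, 0.46 for Brd2 and 0.45 for Jund, and the locus Mir1a-1 gave 1.52. Interferon-stimulated genes stood lower at day 3, with Ifit3 at -2.07, Rsad2 at -1.88, Oasl2 at -1.41 and Gbp3 at -1.04. Myeloid genes gave -0.79 for Mpeg1, -0.72 for Cxcl16 and -0.50 for Hpgds, and vessel genes gave -0.54 for Emcn and -0.47 for Nrp1. The lipid genes Fabp5 and Fdft1 were at -0.59 and -0.33. The number of genes called for this difference over all genes moved with single arrays, from 691 to 210 without sham replicate 1, 305 without JQ1 replicate 1 and 325 without sham replicate 3.

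Probe sets that the gene tests do not use also differed between JQ1-treated TAC and sham hearts. Of 1321 probe sets that list several genes 188 were called (14.2%), 133 higher and 55 lower. Of 11799 probe sets that list no gene 221 were called (1.87%), 114 higher and 107 lower.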

How the results depend on the processing

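Counts of calls moved with the threshold, the arrays in the fit and the weighting, and the direction of no named gene was reversed by any alternative. Counts are given in the order JQ1-treated TAC against sham, vehicle-treated TAC against sham, JQ1 against vehicle in TAC, day 3 against later days, called in both TAC groups, called with JQ1 and not with vehicle, and called with vehicle and not with JQ1. They were 3511, 1506, 2372, 691, 827, 1322 and 301. At adjusted p under 0.01 they were 2095, 695, 1157, 121, 365, 663 and 115, and with a fold of at least 1.5 they were 737, 357, 534, 200, 144, 259 and 93. Fits to only the 9 arrays of day 3 gave 1654, 224, 819, none for days, 125, 508 and 49, and fits to only the 2 groups compared gave 1178, 250, 422, none for days, 130, 272 and 26. These fits have fewer residual degrees of freedom. With array weights 6334 were called for JQ1 against sham, 2902 for vehicle against sham, 3345 for days and 1840 in both, and with the dimmest genes left out 1183 for days. The cause was not tested. With the replicate block the counts were 3226, 1295, 2107, 323, 689, 1179 and 271, and every named call against sham was kept. Leaving out 1 array of day 3 at a time gave 2599 to 3623, 466 to 1879, 1409 to 2740, 210 to 913, 326 to 933, 764 to 1615 and 65 to 439. Single arrays moved these counts by over 1.5 times as follows: without JQ1 replicate 1, JQ1 against vehicle gave 1409, days 305 and JQ1 and not vehicle 764. Without vehicle replicate 2, vehicle against sham gave 466, JQ1 against vehicle 1485, both 326 and vehicle and not JQ1 65. Without sham replicate 1, days gave 210 and both 551, and without sham replicate 3, vehicle against sham gave 849, days 325, both 492 and vehicle and not JQ1 178. Of 118 named genes called against sham, 113 were called with each array left out in turn, and 15 calls were lost when only the 2 groups compared were fitted, among them Hmox1, Peg3, Cd74, Pnmt, Npr1 and Nr3c1. With 3 arrays a group and no detection calls, small changes and dim genes are limited most.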

Other observations

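Other gene groups differed from sham in JQ1-treated TAC hearts as follows. Glycolytic genes gave 4 higher and 8 lower of 29, against 3 and 6 with vehicle (1 and 1 without vehicle replicate 2), and Phkg1, the muscle phosphorylase kinase subunit that starts glycogen breakdown, fell by 1.02 (SE 0.12, adjusted p = 3.42e-06) beside a fall of 0.69 with vehicle. Eno3, the muscle enolase, fell by 0.39 (SE 0.07, adjusted p = 0.000189). Cholesterol synthesis gave 1 higher and 3 lower of 19 with JQ1, and Fdft1, squalene synthase, stood at -0.62 ± 0.07 with JQ1 (adjusted p = 4.28e-06) and at -0.64 with vehicle. Myc network and ribosome biogenesis genes gave 6 higher and 1 lower of 29, against 4 and 1 with vehicle (0 and 1 without vehicle replicate 2). Nop56, a nucleolar protein that guides ribosomal RNA methylation, read 10.52, 10.35 and 10.27 in JQ1-treated TAC hearts, 9.57, 9.89 and 9.65 in vehicle-treated TAC hearts and 9.67, 9.62 and 9.52 in sham hearts, 0.78 ± 0.08 over sham (adjusted p = 3.55e-07). It stood at 0.80 at day 11 and 0.92 at day 28.

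Clock genes gave 5 higher and 4 lower of 18 with JQ1, against 0 and 4 with vehicle. The JQ1 count was 1 and 2 without JQ1 replicate 1, 1 and 3 without sham replicate 1, and 2 and 2 without sham replicate 2. Cry1, a repressor of the clock, was at 0.52 ± 0.10 with JQ1 (adjusted p = 0.000511) and -0.17 with vehicle (adjusted p = 0.376), and Nr1d2 and Per3 were at -0.41 and -0.49 with JQ1 and at -0.41 and -0.50 with vehicle. Cytosolic ribosomal proteins gave 4 higher and 0 lower of 27 with JQ1, 1 to 7 when single arrays were left out and 7 with arrays centred on their median. Epicardial markers gave 2 higher and 1 lower of 16, fat cell markers 2 lower of 13 and Schwann cell markers 1 higher and 2 lower of 10.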
